A study of Sus scrofa with 10 samples.

Results

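The genes AQP4, SLC1A2, SLC1A3, GFAP and ALDH1L1 were followed across the cells and nuclei of the developing and adult pig medial entorhinal cortex (MEC), the part of the temporal cortex that relays information between neocortex and hippocampus. These 5 genes, of 22452 in the tables, were chosen by name as genes of mature astrocytes that serve water transport, glutamate uptake, the cytoskeleton and folate metabolism. All 5 were measured in all 10 libraries and passed the filter on low counts in both comparisons of E60 with E70.

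AQP4 encodes aquaporin-4, the water channel that astrocytes concentrate in the endfeet they press against blood vessels and that ependymal cells also carry. SLC1A3 (GLAST, EAAT1) and SLC1A2 (GLT-1, EAAT2) encode the sodium-driven transporters that take up synaptic glutamate. SLC1A3 is known from radial glia onwards, whereas SLC1A2 is known as the main transporter of the mature forebrain astrocyte and is also made by some neurons. GFAP encodes the intermediate filament protein of astrocytes, and ALDH1L1 a cytosolic folate enzyme used as a broad astrocyte marker.

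Single-cell RNA sequencing with unique molecular identifiers (UMIs, which mark single captured mRNA molecules) covered 28229 cells and nuclei. Whole cells, freed with papain, came from crossbred fetuses at embryonic day 50 (E50, 1 library), E60 (3 libraries) and E70 (3 libraries) and from an animal labelled adult (1 library). Nuclei, sorted from frozen tissue with the DNA dye 7-AAD, came from E70 (1 library) and from an animal labelled adult (1 library). The study's text names both adult sows and young postnatal pigs as the source of the adult libraries, so their exact age is open to doubt. No library carried a transgene or treatment, several whole-cell libraries pooled brains, and the E50, adult and nuclei groups each rest on 1 library and are described without a test. E60 against E70 in whole cells is the only comparison with replicates.

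Libraries held from 493 to 8171 cells and from 2336865 to 55755512 UMIs, and 449 barcodes occurred in more than 1 library. In the adult nuclei 1962 of 2552 nuclei had fewer than 1000 UMIs. E60 replicates 1 and 2 stood apart from their label, since they held 3 and 1 excitatory neuron-like cells, against 1409 of 2696 cells in E60 replicate 3. Further, E60 replicate 1 held 944 ependymal-like cells and 122 cells with the markers of cerebellar Purkinje neurons, which were also found in E50 (141 cells). A cluster led by the photoreceptor gene RCVRN, left without a cell type name, held 57 cells of E50, 28 of E70 replicate 1, 70 of E70 replicate 3 and 235 adult nuclei. Levels and shares are therefore given for each library, and both edgeR comparisons of E60 with E70 also with E60 replicate 3 as the only E60 library.

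Cells were sorted into classes by clustering that used none of the 5 genes, and classes were named from marker lists that did not contain them. Cells with the markers of astrocytes or radial glia are called astroglia-like (3955 cells in 5 clusters), and 4476 cells were left unnamed. Levels are given as CPM, a gene's UMIs scaled to the same total in every library or class. Because only the 3′ ends of transcripts were sequenced, levels are compared between cells and libraries and not between genes.

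On the pig genome Sscrofa11.1 the annotation places AQP4 on chr6:111407632-111422169 (minus strand), SLC1A2 on chr2:25603892-25771840 (plus strand), SLC1A3 on chr16:21873691-21965315 (plus strand), GFAP on chr12:18456268-18466594 (plus strand) and ALDH1L1 on chr7:53748585-53794777 (minus strand). The 250 bases before each gene start were searched on both strands for the letters of motifs of gliogenic factor families: STAT (TTCNNNGAA), the NFI half-site TTGGCA, the whole NFI palindrome, and SOX (ACAAAG). Only the windows of the 2 glutamate transporters held a match, and these are shown with the matching letters in capitals. The SLC1A2 window (chr2:25603642-25603891, plus strand) held 1 STAT match starting 51 bases before the gene start, and the SLC1A3 window (chr16:21873441-21873690, plus strand) held 2 SOX matches starting 180 and 150 bases before it.
SLC1A2: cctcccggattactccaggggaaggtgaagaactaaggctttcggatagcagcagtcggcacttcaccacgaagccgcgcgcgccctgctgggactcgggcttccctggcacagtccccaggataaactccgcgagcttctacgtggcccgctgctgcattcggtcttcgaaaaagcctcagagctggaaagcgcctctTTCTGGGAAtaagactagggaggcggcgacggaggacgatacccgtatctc
SLC1A3: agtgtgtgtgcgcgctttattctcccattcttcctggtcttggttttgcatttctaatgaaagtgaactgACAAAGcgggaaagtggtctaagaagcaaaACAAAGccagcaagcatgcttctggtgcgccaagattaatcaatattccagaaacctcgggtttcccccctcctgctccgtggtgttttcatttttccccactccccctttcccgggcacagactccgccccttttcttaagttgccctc
Of 19569 protein-coding genes, 6.12% held the STAT letters and 12.1% the SOX letters in a window of this length, so that such matches are common, while 9.85% held the NFI half-site and 0.0409% the NFI palindrome. A match describes letters and is not a measured binding site.

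Across the classes, the 5 genes did not mark one and the same set of cells. With the cells of each class pooled, AQP4 stood at 931 CPM in astroglia-like cells and at 2657 CPM in ependymal-like cells, which line the ventricles, against 5.91 CPM in excitatory neuron-like cells. Among the named classes GFAP was also highest in these, at 223 CPM in astroglia-like and 452 CPM in ependymal-like cells, with 3.74 CPM in excitatory neuron-like cells, while the unnamed cells read 236 CPM. The ependymal-like values rest on E60 replicate 1, which held 944 of the 965 such cells. Within that library AQP4 stood at 2784 CPM in astroglia-like and 2725 CPM in ependymal-like cells, so that the pooled order of the 2 classes was not found there, and GFAP at 270 and 362 CPM. Clustered without batch correction, oligodendrocyte precursor-like cells read 1139 CPM of AQP4 in place of 340 CPM, above the astroglia-like cells (986 CPM).

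SLC1A2 was spread differently. Its pooled level was 274 CPM in astroglia-like cells and 273 CPM in oligodendrocyte precursor-like cells, and it stood at 112 CPM in excitatory neuron-like and 37.6 CPM in ependymal-like cells. The 55 astroglia-like cells of the adult library supplied 3268 of the 8246 astroglia-like UMIs, and the medians over libraries with at least 20 cells of the class were 177 and 233 CPM in the first 2 classes. In 5 of the 6 fetal libraries with at least 20 such neurons, the excitatory neuron-like level lay below that of the astroglia-like cells of the same library, by the smallest margin in E70 replicate 2 (81.8 against 122 CPM). In E50 it lay above, at 143 CPM against 77.3 CPM. Thus in the 1 library of E50 the main forebrain glutamate transporter was read at least as strongly in young neurons as in the astroglia-like cells as a whole. This did not hold for the 108 E50 astroglia-like cells of the cluster with astrocyte markers, which read 249 CPM. The order of the 2 classes was the other way round in the later libraries.

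SLC1A3 was read in many classes. It was pooled at 815 CPM in ependymal-like, 726 CPM in astroglia-like, 399 CPM in oligodendrocyte precursor-like, 271 CPM in vascular-like, 173 CPM in microglia-like, 109 CPM in erythroid-like and 99.1 CPM in excitatory neuron-like cells. Within E60 replicate 1 the order of the first 2 was the reverse, at 832 CPM in ependymal-like and 1212 CPM in astroglia-like cells, and without batch correction the oligodendrocyte precursor-like level was 832 CPM. The microglia-like level depended on the library: it ran from 23.7 to 212 CPM in the fetal whole-cell libraries and reached 351 CPM in adult cells and 646 CPM in adult nuclei. In erythroid-like cells SLC1A3 ran from 6.72 to 186 CPM over the 8 libraries with at least 20 such cells. The part of mixed droplets or free RNA in these SLC1A3 levels was not tested. ALDH1L1 gave few UMIs and little contrast between the pooled classes, with 7.55 CPM (95% Poisson interval 6.60 to 8.60) in astroglia-like and 7.85 CPM (5.26 to 11.3) in oligodendrocyte-like cells. These intervals, like all others here, cover counting error only. The 2 classes differ in stage, since the main oligodendrocyte-like cluster held 194 adult cells and 1518 adult nuclei among its 1714. In single libraries ALDH1L1 reached at most 16.9 CPM in oligodendrocyte-like cells, against 99.6 CPM in the astroglia-like cells of the adult whole-cell library.

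**Figure D1:**
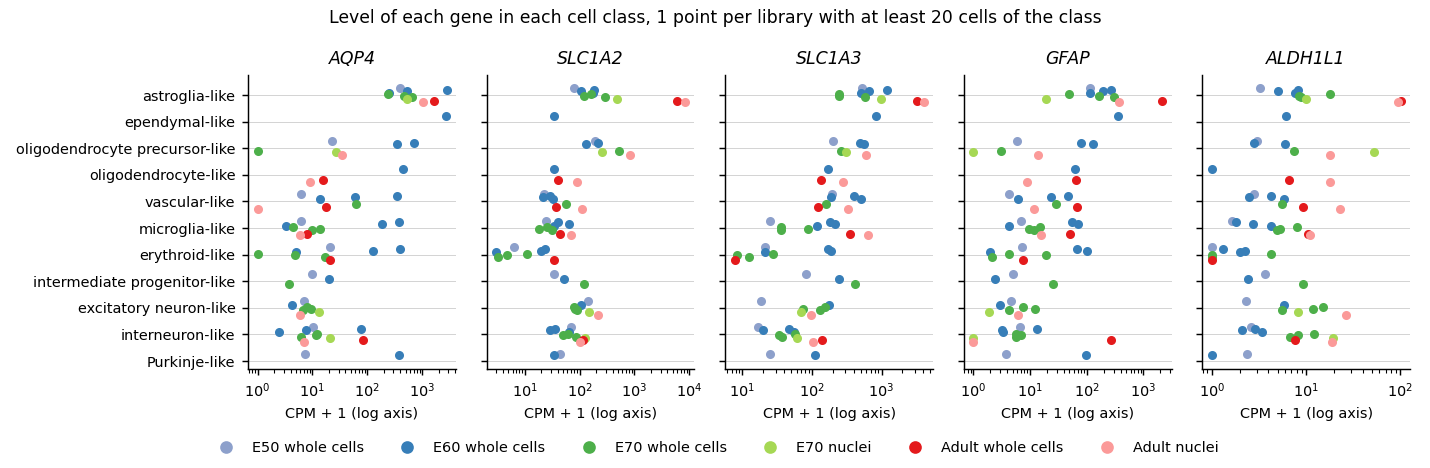
Level of each gene by cell class, in CPM + 1 on a log axis, with 1 point per library that holds at least 20 cells of the class. Among the named classes each of the 5 genes reaches its highest library value in astroglia-like cells (2784 CPM for AQP4, 2150 CPM for GFAP). In excitatory neuron-like cells the highest library values are 217 CPM for SLC1A2 and 175 CPM for SLC1A3, against 12.2 CPM for AQP4 and 11.4 CPM for GFAP.

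E60 replicates 1 and 2 carried AQP4 in cells that are not known to make it. Erythroid-like cells, the precursors and forms of red blood cells, read 387 CPM in E60 replicate 1 and 126 CPM in E60 replicate 2, against 0 to 20.2 CPM in the other 6 libraries with at least 20 such cells. Microglia-like cells read 374 and 186 CPM in the same 2 replicates and at most 12.9 CPM elsewhere. After every cell was thinned to 1000 UMIs, 18.7% of the erythroid-like cells of E60 replicate 1 and 8.94% of those of replicate 2 held an AQP4 UMI, whereas none of those of replicate 3 did. The astroglia-like shares in the same libraries were 82.3%, 28.7% and 21.4%. Within the 3 erythroid-like clusters the level of E60 replicate 1 was concentrated in 169 cells at 1296 CPM, and in the microglia-like class in a cluster at 908 CPM. Of the cells of that library, 39.8% in the microglia-like and 1.18% in the erythroid-like cluster were among those with the highest doublet scores. In E60 replicate 2 the same clusters read 280 and 283 CPM of AQP4, with doublet shares of 7.14% and 0%. Over all libraries these clusters also read SLC1A3, at 318 CPM (microglia-like) and 470 CPM (erythroid-like). The part of mixed droplets or free RNA in these values was not tested.

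When all cells of a library were summed, AQP4 stood at 85.9 CPM at E50, at 1237, 225 and 57.6 CPM in E60 replicates 1, 2 and 3, at 36.0, 88.0 and 160 CPM in E70 replicates 1, 2 and 3, and at 290 CPM in adult cells. Nuclei read 56.0 CPM at E70 and 24.8 CPM in the adult. The E60 replicates thus enclosed every other value but those of E70 replicate 1 and of the 2 nuclei libraries, and no order of stages can be read from them. Among the E60 libraries replicate 3 was compared with the others: AQP4 and GFAP were at least 2-fold lower there than in both other replicates in log2(CPM + 10), as were 2.17% of all genes, and none of the 5 was at least 2-fold higher (background 4.29%). Replicate 1 was not compared in this way, and its AQP4 (1237 CPM) also lay far from that of replicate 2 (225 CPM). Ependymal-like cells held 31.1% of the AQP4 UMIs of E60 replicate 1, and without them its level was 993 CPM.

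GFAP followed the same libraries. Its level was 30.9 CPM at E50, 186, 98.6 and 29.5 CPM in E60 replicates 1 to 3, 16.8, 50.4 and 102 CPM in E70 replicates 1 to 3, and 350 CPM in adult cells, the highest of the 8 whole-cell libraries. E60 and E70 overlapped. In all nuclei summed GFAP was low, with 8 UMIs at E70 (2.59 CPM, interval 1.12 to 5.10) and 40 UMIs in the adult (17.1 CPM, 12.2 to 23.3). The adult value was near that of E70 replicate 1.

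SLC1A2 was high in the adult and moved less over the fetal stages. Its level was 84.9 CPM at E50, 67.6, 52.9 and 103 CPM in the E60 replicates, and 117, 83.4 and 145 CPM in the E70 replicates. Adult cells read 496 CPM (480 to 513), above each of the 7 fetal whole-cell libraries. In nuclei the level was 164 CPM at E70 and 298 CPM in the adult, and here, unlike for AQP4 and GFAP, the E70 nuclei exceeded each E70 whole-cell library.

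SLC1A3 stood at 128 CPM at E50, at 537, 328 and 275 CPM in the E60 replicates, at 166, 100 and 231 CPM in the E70 replicates and at 442 CPM in adult cells. Every E60 library lay above every E70 library. In nuclei it read 144 CPM at E70 and 368 CPM in the adult, with intervals of 131 to 158 and 344 to 394 CPM. ALDH1L1 was low throughout, at 1.95 CPM at E50, 3.79, 2.2 and 4.72 CPM at E60, 12.8, 9.06 and 5.10 CPM at E70 and 15 CPM in adult cells, with 10.0 and 18.0 CPM in E70 and adult nuclei. Here every E70 library lay above every E60 library.

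**Figure D2:**
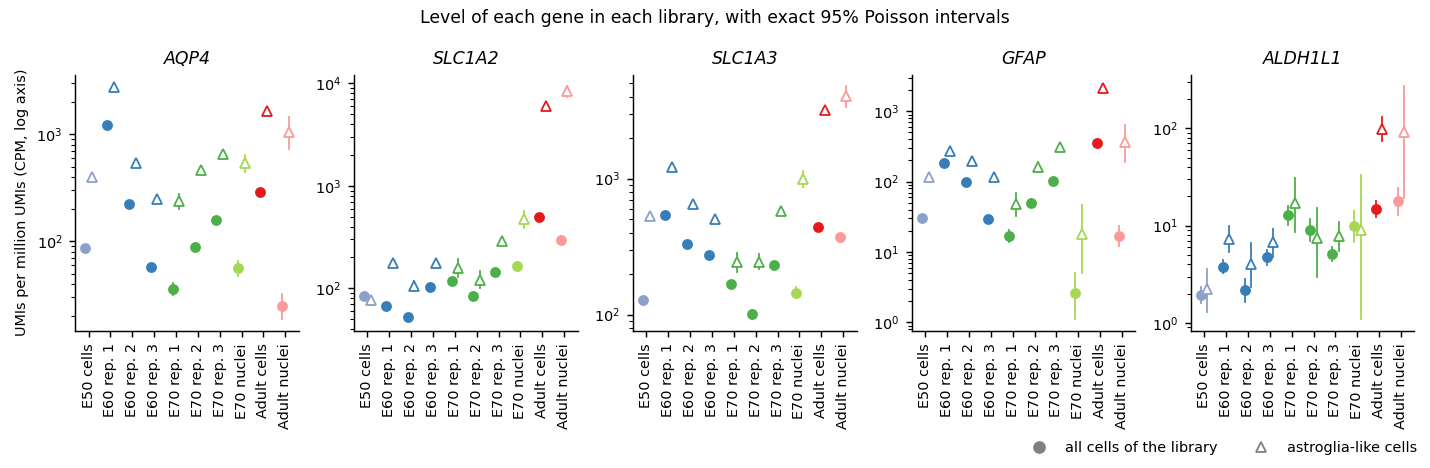
Level of the 5 genes in each of the 10 libraries, in CPM on a log axis, for all cells of a library and for its astroglia-like cells alone, with 95% Poisson intervals. In all cells AQP4 runs from 57.6 to 1237 CPM among the 3 E60 libraries, while SLC1A2 stands apart in the adult in both kinds of sum.

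A level summed over all cells depends both on how many cells carry a gene and on how much each carries, and the classes that held the UMIs differed between genes. Astroglia-like cells held 64.0% of the AQP4 UMIs at E50, 31.1%, 36.7% and 83.8% in the E60 replicates, and 67.4%, 71.2% and 68.2% in the E70 replicates. In adult cells the 55 astroglia-like cells held 42.3% of the AQP4 UMIs, and 11 ependymal-like cells held 50.5%. Those 11 cells also held 31.6% of the adult GFAP UMIs. Without them the adult levels were 152 CPM for AQP4 and 254 CPM for GFAP, so that adult AQP4 fell within the range of the E70 libraries while adult GFAP remained above every fetal whole-cell library.

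Most fetal SLC1A2 did not come from astroglia-like cells. Their share of its UMIs was 12.5% at E50, 30.8% to 36.4% at E60 and 13.9% to 33.4% at E70. Excitatory neuron-like cells held 49.1% at E50, 43.8% in E60 replicate 3, 26.5%, 49.3% and 31.4% in the E70 replicates and 63.7% in E70 nuclei. In E70 replicate 1 the 28 cells of the RCVRN cluster held 309 of 736 SLC1A2 UMIs and 286 of 1050 SLC1A3 UMIs. In adult cells the pattern was the reverse, since astroglia-like cells, 7.46% of the library, held 90.6% of the SLC1A2 UMIs.

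Adult nuclei differed from adult cells in this respect. Only 23 of 2552 nuclei were astroglia-like. They held 38.8% of the SLC1A2 UMIs and 58.6% of the AQP4 UMIs, whereas 28.0% of SLC1A2 lay in oligodendrocyte precursor-like and 36.6% of SLC1A3 in oligodendrocyte-like nuclei. The oligodendrocyte-like class made up 1521 of these nuclei.

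**Figure D3:**
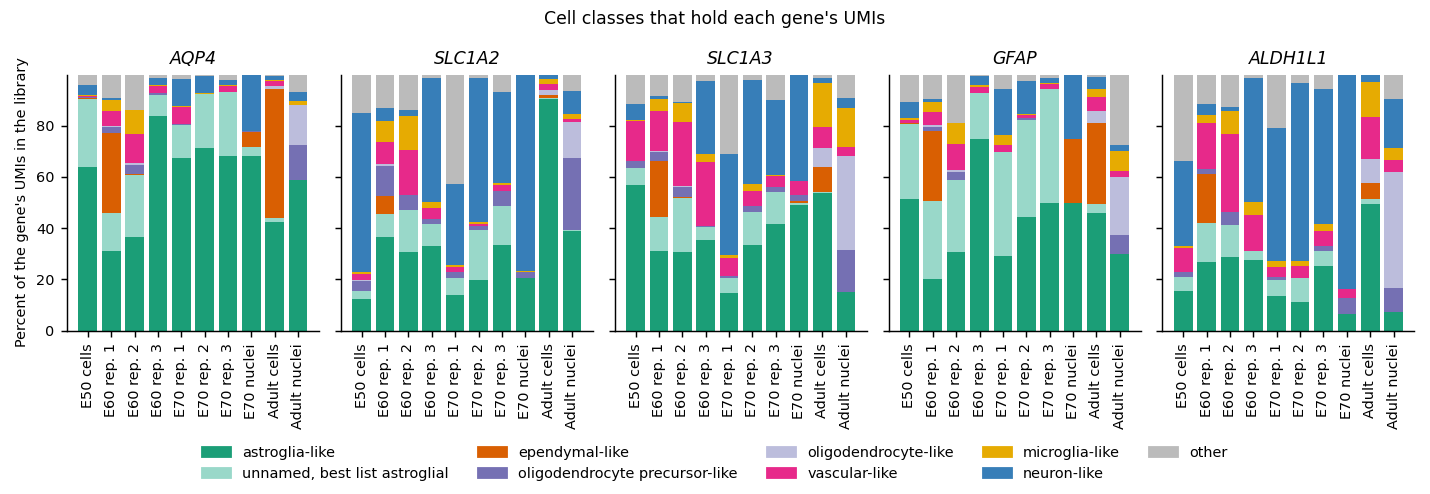
Share of each gene's UMIs held by each cell class, in percent, for every library. Astroglia-like cells hold most AQP4 in 7 of the 10 libraries, whereas neuron-like cells (excitatory neuron-like, interneuron-like and Purkinje-like) hold much of the SLC1A2 of E50, E60 replicate 3 and E70, and adult whole-cell SLC1A2 to 90.6% in astroglia-like cells.

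Within astroglia-like cells the adult library was set apart by 4 of the 5 genes. SLC1A2 read 77.3 CPM at E50, 178, 106 and 175 CPM in the E60 replicates, 159, 122 and 292 CPM in the E70 replicates, and 6030 CPM (5825 to 6241) in 55 adult cells. On the scale of log2(CPM + 10), which understates the change of low genes, the adult exceeded the highest fetal whole-cell library by 4.32. In the nuclei, SLC1A2 read 473 CPM at E70 (113 nuclei) and 8353 CPM (7386 to 9411) in the adult (23 nuclei), a difference of 4.11 on the same scale.

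GFAP in astroglia-like cells ran from 48.2 CPM (E70 replicate 1) to 309 CPM (E70 replicate 3) in the fetal whole-cell libraries and reached 2150 CPM in the adult, 2.76 above the highest of them in log2(CPM + 10). SLC1A3 ran from 242 to 1212 CPM in the same libraries and reached 3191 CPM in the adult, a margin of 1.39. ALDH1L1 ran from 2.23 to 17.1 CPM and reached 99.6 CPM (74.9 to 130, from 54 UMIs), a margin of 2.02. AQP4 did not share this pattern: adult astroglia-like cells read 1642 CPM, above 6 of the 7 fetal whole-cell libraries (238 to 661 CPM) and below E60 replicate 1 (2784 CPM). Of 14344 genes compared in these cells, 2.93% were at least 2-fold above all 7 fetal libraries in the adult. None of the 5 genes was at least 2-fold below them (background 2.21%). With 1 adult library, this comparison has no replicate check.

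In nuclei, too, the adult read higher than E70 within this class, with differences of 4.11 for SLC1A2, 3.76 for GFAP, 2.00 for SLC1A3 and 0.96 for AQP4 in log2(CPM + 10), where 17.9% of all genes were at least 2-fold higher in adult nuclei. ALDH1L1 read 92.8 CPM in the adult from 3 UMIs and 9.1 CPM at E70 from 2, too few for a difference. The GFAP difference (371 CPM in the adult and 18.2 CPM at E70) also rests on few UMIs. When all cells were summed, SLC1A2 was the only one of the 5 genes at least 2-fold above every fetal whole-cell library (difference 1.71, background 2.34%), and in nuclei SLC1A3 (1.29) and GFAP (1.11) passed that size (background 6.74%). On this scale none of the 5 was at least 2-fold lower in the adult, in whole cells (background 0.483% of all genes with all cells summed) or in nuclei (3.48% with all nuclei summed, 20.4% in astroglia-like nuclei). AQP4 in all nuclei summed was close to that size, 0.92 lower in log2(CPM + 10), and on the ratio of the 2 levels without the added 10 (24.8 and 56.0 CPM) its log2 difference was -1.17.

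Nuclei and whole cells of the same stage did not read alike. At E70, astroglia-like nuclei held 18.2 CPM of GFAP (4 UMIs) against 48.2 to 309 CPM in the 3 whole-cell libraries, whereas SLC1A3 (997 CPM against 242 to 579) and SLC1A2 (473 against 122 to 292) were higher in the nuclei, and AQP4 (537 CPM) lay between the replicates. By size, GFAP was at least 2-fold below all 3 whole-cell libraries in astroglia-like nuclei (background 12.8%) and in all nuclei summed (background 7.87%), and none of the 5 was at least 2-fold above them (7.69% and 5.32% of all genes were). In the adult, GFAP stood at 371 CPM in nuclei and 2150 CPM in cells, while SLC1A2 and SLC1A3 were again higher in nuclei. Within E70 the kind of preparation and the animal cannot be told apart, since 1 library of nuclei was made.

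The astroglia-like cells of different libraries fell into different clusters, which have to be kept in mind beside the values above. A cluster led by cell-cycle genes such as TOP2A held 44.3% of these cells at E50, 63.3% in E60 replicate 2 and none in the adult. A cluster with astrocyte markers, led by S100A14, S100A1 and MFGE8, held 53 of the 55 adult cells and 45.7% of those of E60 replicate 1. Another one, led by SLCO1C1, with radial glia markers, held 58.4% in E60 replicate 3, 54.6% in E70 replicate 3, 97.3% in E70 nuclei and all 23 adult nuclei. Finally, a cluster led by S100A6 and S100A4 was made almost wholly of E60 replicates 1 and 2 (234 and 76 cells), and one led by GAL and GDF10 of E50 and E60 replicate 1 (70 and 49 cells).

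Libraries also differed inside 1 cluster. In the S100A14 cluster, SLC1A2 read 249 CPM at E50, 275 and 159 CPM in E60 replicates 1 and 2, 747 CPM in E70 replicate 3 and 5946 CPM in the adult. AQP4 read 1536, 3027, 964, 815 and 1638 CPM in the same libraries, so the adult did not lead. In the GAL cluster, SLC1A3 stood at 1181 CPM at E50 and 2500.2 CPM in E60 replicate 1, with SLC1A2 at 12.8 and 11 CPM, the lowest SLC1A2 level of the 5 astroglia-like clusters. In the dividing cluster, each of the 5 genes of E50 was below its level in the S100A14 cluster, for instance AQP4 at 199 CPM. Without the dividing cells, AQP4 in the astroglia-like cells of E60 replicates 1, 2 and 3 was 3173, 966 and 347 CPM, and the order of the 3 replicates was kept. In all astroglia-like cells of E60 replicate 3, AQP4 was at least 2-fold below both other replicates (background 2.19%), GFAP was not, and none of the 5 was at least 2-fold above them (background 5.71%).

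A further 2 clusters resembled astroglia but carried markers of other cells among their leading genes and were left unnamed. The first (1188 cells, led by ADIRF and the choroid plexus gene TTR) held 719 cells of E60 replicate 1 and 362 of replicate 2, with GFAP at 913 and 317 CPM and AQP4 at 2967 and 643 CPM. The second (635 cells, led by KCNIP3, OLIG1 and EGFR) held 268 cells of E70 replicate 3, with GFAP at 675 CPM and AQP4 at 576 CPM. Together they held 44.5% of the GFAP UMIs of E70 replicate 3, and from 18.0% to 44.5% in all 7 fetal whole-cell libraries.

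E60 was then compared with E70 across libraries. With all cells summed, AQP4 averaged 507 ± 638 CPM (SD, n = 3) at E60 and 94.7 ± 62.4 CPM (n = 3) at E70, and SLC1A3 380 ± 138 CPM and 166 ± 65.3 CPM. SLC1A2 averaged 74.4 ± 25.5 and 115 ± 30.6 CPM, GFAP 105 ± 78.4 and 56.5 ± 43.0 CPM, and ALDH1L1 3.57 ± 1.28 and 9.0 ± 3.86 CPM. For AQP4 and GFAP the SD at E60 was of the size of the mean or close to it.

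None of the 5 genes passed edgeR's quasi-likelihood test with Benjamini-Hochberg adjustment over 16743 genes, and neither did any other gene (0%). At an unadjusted p under 0.05 edgeR gave 4916 genes (29.4%), and DESeq2 gave 2833 after adjustment. The log2 difference, E70 minus E60, was -2.63 (SE 1.08, adjusted p = 0.160 by edgeR) for AQP4 and -1.42 (SE 0.44, adjusted p = 0.122) for SLC1A3. It was -1.11 (SE 0.81, adjusted p = 0.361) for GFAP, 0.47 (SE 0.30, adjusted p = 0.311) for SLC1A2 and 1.14 (SE 0.45, adjusted p = 0.15) for ALDH1L1, by the same edgeR test. SLC1A3 was lower in every E70 library than in every E60 library, as were 11.5% of all genes, and ALDH1L1 was higher in every E70 library, as were 14.9%.

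Whether AQP4 and SLC1A3 were called depended on E60 replicate 3, the library rich in excitatory neuron-like cells. Without it edgeR called 5902 of the 17019 genes tested, among them AQP4 (-3.17, adjusted p = 0.0333) and SLC1A3 (-1.68, adjusted p = 0.0276). With so large a share of all genes called, these calls are not particular to the 2 genes. Without E70 replicate 3 it called 1570 of 17003 genes and none of the 5. With E60 replicate 3 as the only E60 library, AQP4 and GFAP turned to 0.75 and 0.98, higher at E70. E60 replicate 1 weighed on the sizes, since without it the differences were -0.86 for AQP4 and -0.45 for GFAP, and leaving out each library in turn gave -3.21 to -0.86 and -1.83 to -0.45. DESeq2 called AQP4 (adjusted p = 0.0347) and SLC1A3 (adjusted p = 0.0239) on all 6 libraries, among 2833 of 16743 genes.

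Libraries of different stages were sequenced in shared pools, which gives a comparison within a pool with 1 library per stage. E60 replicate 1 and E70 replicate 1, from the same pool, read 1237 and 36.0 CPM of AQP4, and E60 replicate 3 and E70 replicate 3 read 57.6 and 160 CPM. GFAP likewise moved in opposite directions in the 2 pools, from 186 to 16.8 and from 29.5 to 102 CPM. SLC1A3 was lower at E70 in both (537 to 166 and 275 to 231 CPM), and ALDH1L1 (3.79 to 12.8 and 4.72 to 5.10 CPM) and SLC1A2 (67.6 to 117 and 103 to 145 CPM) were higher at E70 in both.

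The share of astroglia-like cells was also compared between the stages. Leaving out erythroid-like and vascular-like cells, they made up 22.1%, 33.4% and 15.6% of the E60 replicates and 7.19%, 8.90% and 14.7% of the E70 replicates, a mean of 23.7% ± 9.04 (SD) against 10.3% ± 3.92. The exact permutation test (two-sided, n = 3 and 3) gave p = 0.1, the smallest that 3 against 3 libraries allow. With the 2 unnamed astroglia-related clusters added, the shares were 34.2%, 51.7% and 19.5% against 13.5%, 18.7% and 23.8%, and the groups overlapped.

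The stages were also compared within astroglia-like cells. AQP4 read 2784, 537 and 251 CPM at E60 against 238, 461 and 661 CPM at E70, and the log2 difference was -1.53 (SE 0.87, adjusted p = 0.337 by edgeR over 13864 genes). SLC1A3 read 1212, 652 and 507 against 242, 245 and 579 CPM, with a log2 difference of -1.27 (SE 0.52, adjusted p = 0.242 by edgeR). The differences of SLC1A2 (0.23, SE 0.40), GFAP (-0.26, SE 0.64) and ALDH1L1 (0.64, SE 0.48) had adjusted p of 0.758, 0.834 and 0.454 by edgeR. Again edgeR called no gene (0%), with 2720 genes (19.6%) at an unadjusted p under 0.05 and 896 called by DESeq2, which held none of the 5. ALDH1L1 alone did not overlap between the stages (4.09 to 7.31 CPM against 7.40 to 17.1 CPM), as 10.1% of all genes did in that direction, and none of the 5 was lower in every E70 library (background 8.02%). Without E60 replicate 1 the AQP4 difference turned to 0.08 and that of GFAP to 0.07.

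The share of cells with a UMI was compared at 1 depth by thinning every cell to 1000 UMIs. AQP4 was found in 45.5% of the cells of E60 replicate 1 and 3.6% of those of replicate 3, the extremes of that stage, and in 3.85% to 8.78% of cells at E70. The mean share was lower at E70 by 15.7 percentage points for AQP4 (21.8% and 6.16%, exact two-sided permutation p = 0.4), by 10.6 points for SLC1A3 (24.6% and 14.0%, exact p = 0.1) and by 4.89 points for GFAP (8.28% and 3.39%, exact p = 0.3). It was higher by 1.45 points for SLC1A2 (exact permutation p = 0.6) and by 0.37 points for ALDH1L1 (exact permutation p = 0.3). As deposited, without thinning, cells with SLC1A2 made up 22.8% to 43.7% at E60 and 44.6% to 48.7% at E70.

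Single astroglia-like cells differed in how many of the 5 genes they showed. At 1000 UMIs per cell, 49.7% of the E50 cells held none of them, against 5.57%, 38.3% and 40.8% in the E60 replicates and 37.5%, 35.3% and 24.1% in the E70 replicates. No adult cell was without any. In the adult 56.4% of cells held 4 genes and 9.09% held all 5, whereas no fetal cell held all 5. SLC1A2 had the widest gap between fetal and adult cells: it was found in 6.86% of E50 cells, in 8.86% to 15.4% of E60 cells, in 7.84% to 25.5% of E70 cells and in 98.2% (exact binomial interval 90.3% to 99.95%) of adult cells. GFAP was found in 3.13% to 25.2% of fetal and 81.8% of adult cells, and ALDH1L1 in 12.7% of adult cells. For AQP4 the adult share (81.8%) was matched by E60 replicate 1 (82.3%).

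AQP4 and GFAP occurred together in 24 of 729 astroglia-like cells at E50, where independent occurrence would give 8.38. In E60 replicate 2 they met in 49 cells against 29.6, in E60 replicate 3 in 14 against 8.79 and in E70 replicate 3 in 58 against 46.2. In E60 replicate 1, where AQP4 was found in most cells, 218 cells held both against 202, and in the adult 37 against 36.8. SLC1A3 and GFAP met in fewer cells than independent occurrence would give in E50 (9 against 14.7) and E60 replicate 1 (115 against 141). They met in slightly more in E60 replicates 2 (43 against 39.1) and 3 (20 against 15.5) and in E70 replicate 3 (46 against 44.2). These counts describe cells of single libraries and carry no test.

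**Figure D4:**
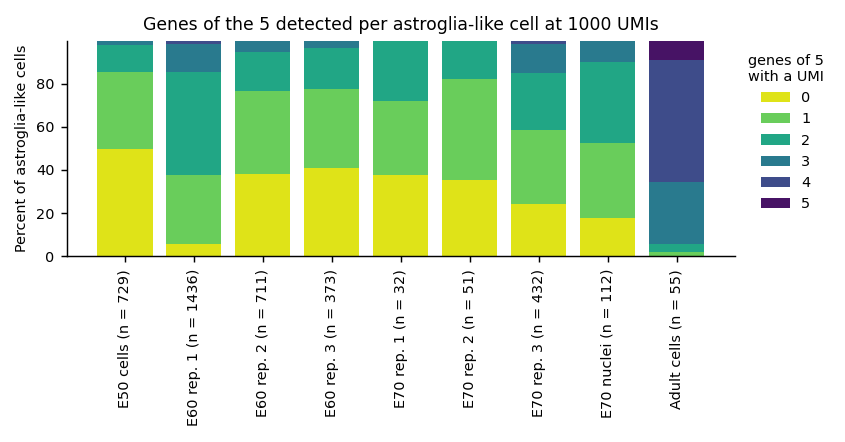
Share of astroglia-like cells, in percent, that hold a UMI of 0, 1, 2, 3, 4 or all 5 of the genes after thinning to 1000 UMIs per cell, by library, with adult nuclei left out for their depth. Cells with 4 or 5 of the genes make up 56.4% and 9.09% in the adult and at most 1.67% and 0% in the fetal whole-cell libraries.

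Over the 45 clusters of all cells, the genes fell into pairs. The levels of AQP4 and GFAP, as log2(CPM + 10), ran in parallel (Pearson r = 0.95), SLC1A3 was nearer to GFAP (0.76) and AQP4 (0.71), and SLC1A2 was nearest to ALDH1L1 (0.64) and far from AQP4 (0.25). These clusters share libraries and depth, and the coefficients are given as a description. ALDH1L1 reached at most 15.8 CPM in any cluster, so its coefficients rest on levels near the added 10. In level, the highest AQP4 was found in the S100A6 cluster (3390 CPM) and the main ependymal-like cluster (2842 CPM), the highest SLC1A2 in the S100A14 cluster (857 CPM) and an oligodendrocyte precursor-like cluster (524 CPM), and the highest SLC1A3 in the S100A14 (1464 CPM) and GAL (1433 CPM) clusters.

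**Figure D5:**
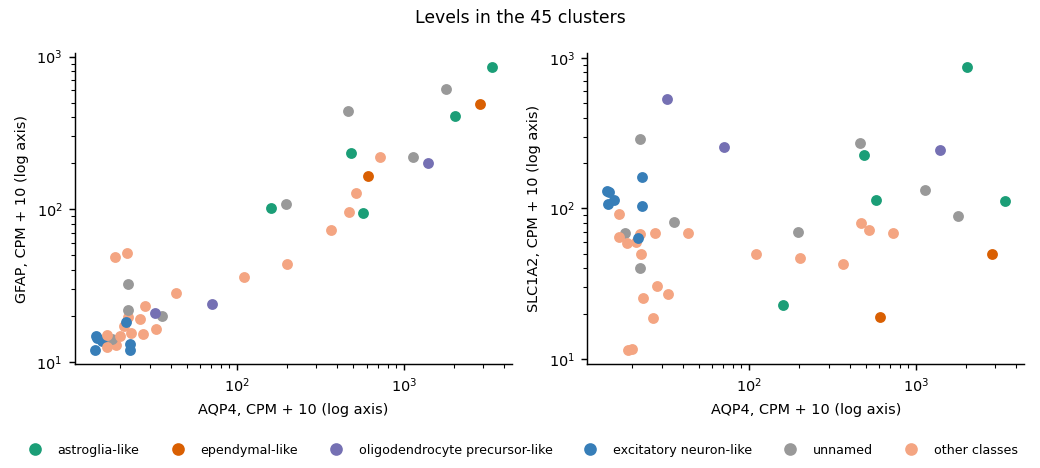
Levels of AQP4 against GFAP and against SLC1A2 over the 45 clusters, in CPM + 10 on log axes, with 1 point per cluster coloured by class. Clusters high in AQP4 are high in GFAP (r = 0.95), whereas SLC1A2 shows little relation to AQP4 (r = 0.25).

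Of 13563 genes compared over these clusters, MLC1, which encodes a membrane protein of astrocyte endfeet, ran most closely with AQP4 (0.96) and with GFAP (0.95), followed for both by EDNRB, the endothelin receptor B (0.94 and 0.92). GAREM2 (0.94), GPR75 (0.93) and TST (0.92) came next for AQP4, and PDLIM3, OTOS and TST (0.91 to 0.92) for GFAP. Close to SLC1A3 were ERBB2 (0.91), VEPH1 (0.88), BMPR1B (0.88) and LAMA1 (0.87). Nearest to SLC1A2 were CAMK1G (0.82), LRP1B (0.81), GRID1, a glutamate receptor-like gene (0.80), SHC3 (0.80) and SEZ6L (0.80). For ALDH1L1 they were MTTP (0.81), ENOSF1 (0.80), CYP2R1 (0.80), SFXN5 (0.79) and GRXCR1 (0.79). MLC1 and BMPR1B belong to the list that named astrocyte clusters.

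Genes that work beside the 5 were followed as lists. In the comparison of E60 with E70 no gene of the 7 lists passed edgeR in either kind of sum, and the unadjusted counts are to be read against 29.4% of all genes in all cells and 19.6% in astroglia-like cells. For AQP4, the endfoot group (the proteins that anchor the channel to the basement membrane and couple astrocytes) had 4 of 11 genes at an unadjusted p under 0.05 in all cells, all lower at E70. Among them was GJA1, the gap junction gene connexin 43, with means of 107 CPM at E60 and 19.1 CPM at E70 (log2 difference -2.68, SE 0.37, adjusted p = 0.122 by edgeR). The median of the group was -0.64, against -0.06 over all genes. In astroglia-like cells 3 of 10 were under 0.05, with a median of -0.31 against -0.03, and the 2 of highest level, DMD (dystrophin) and DTNA, averaged 421 and 180 CPM at E60 and 428 and 151 CPM at E70.

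In adult astroglia-like cells 4 of the 11 endfoot genes compared were at least 2-fold above all 7 fetal whole-cell libraries, where 2.93% of all genes were. These were the connexin gene GJA1 (683 CPM in the adult, difference 1.68), the potassium channel gene KCNJ10 (138 CPM, 1.98), the adhesion gene HEPACAM (221 CPM, 1.97) and the dystrobrevin gene DTNA (797 CPM, 1.57), all in log2(CPM + 10). Another connexin gene, GJB6 (70.1 CPM in the adult, at most 1.05 CPM in the fetal whole-cell libraries), passed the filter on UMIs only through the adult library and is not counted. GJA1, HEPACAM and GJB6 were also among the markers that named the class. Of the other endfoot genes, MLC1 lay 0.86 above its highest fetal library. DMD (-0.69), UTRN (-0.35), AGRN (-1.38), SNTB1 (-0.23) and DAG1 (-0.17) were lower in the adult than in theirs, on the same scale. Of the other aquaporins, none of 4 compared passed that size, and the 2 of highest level, AQP11 and AQP9, read 46.1 and 9.23 CPM in the adult, with 20.6 to 166 CPM and 0.92 to 14.0 CPM in the fetal libraries.

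For the glutamate transporters, the relatives of the SLC1 family were measured with all 5 genes. SLC1A4, a neutral amino acid transporter, read 192 CPM in adult astroglia-like cells against 29.6 to 67.3 CPM before (difference 1.39) and was the only one of them that passed the size. SLC1A1, the neuronal glutamate transporter EAAT3, read 25.8 CPM. Of 10 genes of glutamate and glutamine handling compared, 3 passed, among them GLUL, the glutamine synthetase that uses the glutamate taken up (1557 CPM, difference 2.19), and the cystine-glutamate exchanger gene SLC7A11 (535 CPM, 2.47). In all cells the adult exceeded the fetal libraries by 2.97 for GLUL. Between E60 and E70 in all cells, 5 of 10 genes of this list, GLUL with -1.39 (SE 0.38) and adjusted p = 0.122 by edgeR among them, were at an unadjusted p under 0.05, all lower at E70.

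Of the other filament genes, none of 6 compared in astroglia-like whole cells was at least 2-fold above all fetal whole-cell libraries. VIM, the vimentin of immature glia and the list's most abundant gene, read 328 CPM in the adult and 600.1 to 2449 CPM in the fetal libraries, so that it lay 0.85 below the lowest of them. SYNM, which encodes synemin and was next in level, read 84.9 CPM in the adult and 7.4 to 51.0 CPM before, a margin of 0.64. NES, the nestin of neural progenitors, read 3.69 CPM in the adult and 89.9 CPM at E50. In astroglia-like nuclei 2 of the 6, VIM and SYNM, were at least 2-fold higher in the adult than at E70 in log2(CPM + 10), where 17.9% of all genes were. VIM read 124 against 54.6 CPM there, and SYNM 61.9 against 9.1 CPM, fewer than 3 UMIs in both libraries. Of the folate enzymes around ALDH1L1, none of 10 was above and TYMS, the thymidylate synthase of dividing cells, lay 1.26 below the lowest fetal library. MTHFD1 and MTHFD1L, the 2 folate enzymes of highest level, read 53.5 and 55.4 CPM in the adult, within their fetal ranges of 31.9 to 86.7 and 25.6 to 59.8 CPM. ALDH1L2, the mitochondrial relative of ALDH1L1, read 29.5 CPM in the adult, within the fetal range of 12.3 to 83.9 CPM. In astroglia-like nuclei, by contrast, 5 of the 10 were at least 2-fold higher in the adult (background 17.9%), on few UMIs. ALDH1L2 (186 CPM in adult nuclei, difference 2.08), MTHFD1L (217 CPM, 1.17) and MTHFD1 (155 CPM, 1.16) were among them. MTHFD2 and FPGS, also counted, read 30.9 CPM each in adult nuclei, which is fewer than 3 UMIs, so no fold is given for them. The gliogenic regulators gave 0 of 12 genes above and 0 below in whole cells, with NFIA at 1008 CPM and NFIB at 535 CPM in the adult, the former within and the latter 0.22 below the fetal range. In astroglia-like nuclei 3 of the 12 were at least 2-fold lower in the adult than at E70 (background 20.4%). NFIB differed by -1.41 (588 against 1584 CPM). HES1 read 61.9 against 218 CPM, fewer than 3 UMIs in the adult, so no fold is given for it. The third was ID4, which had no UMI in the 23 adult nuclei and 27.3 CPM at E70, and since 3 UMIs make 92.8 CPM in the former, no fold is given.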

How the data were processed

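The authors deposited 1 table of UMI counts per library, with genes in rows and cell barcodes in columns. They made them with 10x Genomics 3′ chemistry and, per the labels, Cell Ranger 2.20, counting exonic and intronic reads on Sscrofa11.1, so that unspliced RNA adds to levels, above all in nuclei. Cells were kept as deposited (cells under 1000 UMIs were left out of thinned shares only).

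Counts were log-normalized, 3000 variable genes were taken (without the members and the other marker and list genes, 178 in all), and 50 principal components were merged over libraries by mutual nearest neighbours and clustered by the Louvain method at resolution 1.6 (scanpy 1.11.5, igraph 0.11.9). A cluster was named from fixed marker lists. It was left unnamed where fewer than 3 markers were detected, where its marker score was low, or where it had few UMIs and no leading marker. It was also left unnamed where its 10 leading genes held markers of another class, at least as many as of its own. Scrublet's automatic threshold marked too few cells to have worked in several libraries, so the highest scores, up to the number expected for the loading, were left out as an alternative.

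Cells were summed per library and E60 was tested against E70 with edgeR 4.0.16 (TMM, filterByExpr, quasi-likelihood, adjusted p under 0.05, SE from the F statistic). On simulated counts for all cells, with 16703 genes tested, this recovered 48.5% of 97 genes changed 2-fold and 100% of 103 genes changed 4-fold, with 6 false calls. The simulated libraries shared 1 mean profile, apart from the changed genes, and a fixed dispersion of 0.05. The real replicates were less alike, so these rates do not carry over to the data. Shares were tested by exact permutation over libraries. Comparisons with 1 library per group used a 2-fold size on log2(CPM + 10) among genes with at least 50 UMIs. Named genes were the 5 members, the 5 genes most alike each over clusters of at least 50 cells, and, of each list, those past a test or size and the 2 of highest mean level in astroglia-like cells, with a few related genes added after their values were seen and 1 gene not reported here. Members and lists were chosen with earlier results of these data known. Alternatives were other size factors, DESeq2 1.42.0, no count filter, a replicate block, all libraries in 1 fit, each replicate left out, and other clusterings, cells and denominators. Intervals are exact 95% Poisson or binomial intervals.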

Additional observations from a re-analysis of the deposited data

Results flagged for a closer look

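AQP4 summed over all cells moved in opposite directions with age in the 2 kinds of preparation. In whole cells the adult library (290 CPM) stood above all 3 E70 libraries (36.0 to 160 CPM), whereas in nuclei the adult (24.8 CPM, 58 UMIs) stood below E70 (56.0 CPM, 173 UMIs), a log2 difference of -1.17. The difference between the preparations was not tested, as the adult and nuclei groups have 1 library each. Beside it stand 3 measurements: 11 ependymal-like cells held 50.5% of the adult whole-cell AQP4 UMIs, astroglia-like nuclei were 0.901% of the adult nuclei against 13.2% at E70, and within astroglia-like nuclei the adult was higher (1052 against 537 CPM). The part of these in the result was not tested.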

How the results depend on the processing

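The count of genes called between E60 and E70, 0 in both sums by edgeR, was 2833 (all cells) and 896 (astroglia-like cells) by DESeq2, and ran from 0 to 5902 and from 0 to 1894 when each replicate was left out, above 0 only without E60 replicate 3 or E70 replicate 3 (1570 and 1242). The cause was not tested. In all cells 69 of the 75 alternative member values kept their direction and side of the threshold, 4 passed it (AQP4 and SLC1A3, by DESeq2 and without E60 replicate 3) and 2 reversed, AQP4 (0.75) and GFAP (0.98) with E60 replicate 3 as the only E60 library. In astroglia-like cells 7 of 90 reversed: with that library alone AQP4 was 0.90 and GFAP 0.67, GFAP was 0.37 without batch correction (where E70 replicates 1 and 2 had too few such cells), and leaving out each replicate gave -2.05 to 0.075 for AQP4, -1.01 to 0.16 for GFAP and -0.26 to 0.44 for SLC1A2. The SLC1A2 share of cells ran from -0.60 to 2.58 points when each replicate was left out, and the astroglia-like share kept its direction in all 10 alternatives. With the unnamed astroglia-related clusters added, or the dividing cluster left out (both chosen after seeing the data), edgeR called 0 genes.

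The numbers 1 and 3 mark a shared sequencing pool and number 2 does not, and the labels state no pairing. Same-numbered E60 and E70 replicates had correlations of deviations of -0.17, 0.03 and -0.13 in all cells and -0.15, 0.09 and -0.10 in astroglia-like cells, and not every library correlated best with its own number. With the replicate block edgeR called 0 genes in both sums, with 2839 and 1527 at an unadjusted p under 0.05, and the AQP4 difference was -1.76 and -0.75. No member changed its call or direction under the block.

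Of the levels in libraries, 48 of 150 moved outside the Poisson interval of their main value. Of these 48, 30 did so without erythroid-like and vascular-like cells and 17 without hemoglobin and mitochondrial UMIs. Of the levels in classes 69 of 175 moved outside theirs, 29 without batch correction, 24 at resolution 0.8 and 16 without likely doublets. These intervals cover counting error only, and the moves were not compared with the spread between replicates. Depth limits GFAP in E70 nuclei (8 UMIs), ALDH1L1 throughout, and the 23 adult astroglia-like nuclei.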

Other observations

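In E60 replicate 1 the unnamed cluster led by ADIRF and TTR held 30.04% of the GFAP UMIs and 14.7% of the AQP4 UMIs, and in E70 replicate 3 the one led by KCNIP3 held 44.1% and 24.0%. An oligodendrocyte precursor-like cluster led by PCDH15, GPR17 and PDGFRA read 1384 CPM of AQP4 over its 166 cells, 110 of them from E60 replicate 1 and 51 from E60 replicate 2, while the other oligodendrocyte precursor-like clusters read 60.5 and 22.1 CPM. Vascular-like cells of E60 replicate 1 read 352 CPM of AQP4, and those of E60 replicate 3 12.8 CPM. Adult interneuron-like cells, 35 in number, read 273 CPM of GFAP and 82.8 CPM of AQP4, against 12.2 CPM or less of GFAP in the other libraries. How far mixed droplets take part in these values was not tested.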
